A study of Homo sapiens with 8 samples.

Results

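The cell line 786-O was derived from a human renal cell carcinoma, and here it was transfected with miR-532-5p, one strand of the microRNA (miRNA) hairpin miR-532. RNA of the transfected cells (Cy5) was hybridised against RNA of mock cells of the same line (Cy3) on 1 two-colour Agilent array. Every gene of the array was followed, 43317 in all, each represented by 1 probe of 60 bases. Of these, 15669 were well above background in both channels and are called measured below. A further 457 genes were above background in the mock channel alone and 2680 in the transfected channel alone, and 24511 in neither. The labels give the mock as cells with no transfection, and the transfection reagent as Lipofectamine RNAiMAX. No array of 786-O with a control RNA was used here, so a response to miR-532-5p and a response to transfection with any small RNA cannot be told apart. The dose and the time of harvest are not given in the sources used here.

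The series holds 8 such arrays, 1 for each treatment, all with the mock in Cy3 and the treated cells in Cy5. The other 786-O array carried miR-532-3p, the opposite strand of the same hairpin. The 6 arrays of other lines carried miR-140-5p or miR-140-3p in T24 (bladder cancer), miR-199-3p in C4-2 (prostate cancer), miR-125b-1-3p in PC3 (prostate cancer) and bisamide, a small molecule, for 24 h or 48 h in PC3. No treatment had a second array and no dyes were swapped, so no p-value or SD between replicates exists for any value below, and a dye effect of a single probe can be read only from the arrays of the other lines.

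A miRNA is a short RNA that a protein of the Argonaute family carries to messenger RNAs. Pairing is led by the seed, bases 2 to 8 of the miRNA, and a messenger RNA that pairs with it is commonly destabilised or translated less. Both strands of a hairpin can be loaded, and since their seeds differ they address different messenger RNAs. 786-O cells are known to lack functional VHL, the protein that marks hypoxia-inducible factors for breakdown, and are a common model of clear cell renal carcinoma. In RNA from a bulk culture, fewer cells of a kind and less RNA per cell cannot be told apart.

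The 2 strands are shown in full because their seeds, in capitals, set which genes are grouped below (sequences from RefSeq, GRCh38.p14).
miR-532-5p: cAUGCCUUgaguguaggaccgu
miR-532-3p: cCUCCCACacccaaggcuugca
Both lie in 1 hairpin of 91 bases on the forward strand of chromosome X (chrX:50003148-50003238), miR-532-5p at chrX:50003167-50003188 and miR-532-3p at chrX:50003204-50003225. A messenger RNA that pairs with bases 2 to 8 of miR-532-5p holds the letters AAGGCAT. Array probes are written in the sense of the transcript, as the polyadenylation signal AATAAA in 4567 probes against its reverse complement TTTATT in 2096 shows, so the match was sought as AAGGCAT on that strand only.

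The 8 measured genes of lowest ratio whose own probe holds AAGGCAT are shown next, each with 30 bases around the match. Capitals mark the match, and a further capital A after it is the A opposite base 1 of the miRNA. These are probe sequences of the array design, on the strand of the gene.
C11orf31: aaccctctagtAAGGCATtgtaaaagttac
MRPL12: ggaaatcaagaactacatccAAGGCATcaa
ATP13A3: ctcttgtcaaaAAGGCATAcattcataatt
BAG2: ctcattcagcaatgttAAGGCATctgtatc
PSMB6: gggAAGGCATgaccaaggaagagtgtctgc
CNN3: cgaccAAGGCATtgattattagatccacac
UQCRC2: tgaggtaaaatAAGGCATAaatgcaggtaa
MPZL1: ggagcactcaaAAGGCATtacttagagatt
In GRCh37 the probes of these genes lie at chr11:57510441-57510500 (C11orf31, now named SELENOH), chr17:79674001-79674060 (MRPL12), chr3:194123484-194123543 (ATP13A3, reverse strand), chr6:57049439-57049498 (BAG2), chr17:4701404-4701589 (PSMB6), chr1:95363260-95363319 (CNN3, reverse strand), chr16:21994578-21994637 (UQCRC2) and chr1:167759883-167759942 (MPZL1). The PSMB6 probe spans more than its 60 bases in the genome and so crosses an intron. Whether the other matches fall in coding sequence or in a 3′ untranslated region was not determined here.

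The labelled cell line was checked first. Of 6 genes known from renal cell carcinoma, all 6 were measured in 786-O, with raw mock signals of 235 for PAX8, 124 for PAX2, 630 for EPAS1, 278 for CA12, 924 for NNMT and 153 for CDH6. CA12, NNMT and CDH6 were brightest in the 786-O mocks of all 8 arrays, whereas PAX8, PAX2 and EPAS1 were brighter still in the T24 mocks (390 and 423, 551 and 619, 906 and 901). Among prostate and urothelial genes, KLK3, a prostate gene with a raw mock signal of 13592 in C4-2, stood at 21.4 in 786-O, and UPK1B, UPK2, UPK3A, GATA3 and KRT5 stood between 18.9 and 24.9, near the median raw mock signal of all probes, 23.8. Mock signals of the 786-O arrays correlated across measured genes with r = 0.998, against 0.880 to 0.916 for the 6 pairs with other lines, where genes are not independent replicates. The mock of 786-O was read on 2 arrays: a single reading had an SD of 0.0697 (log2, 14847 genes), and a difference between 2 readings an SD of 0.0985. The labels do not say whether these were 1 extract or 2, so this SD may be technical only. Probes spotted repeatedly on the array had a median SD of the ratio of 0.0515 over 275 probes, and over the 6 arrays of other lines a gene's ratio had a median SD of 0.128.

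Values below are log2 ratios of transfected over mock RNA unless a raw signal (mean spot brightness) is named. With miR-532-5p, 14 genes (0.0893% of those measured) were below −1.5 and 2 (0.0128%) above 1.5. At a size of 1.0 there were 70 lower (0.447%) and 55 higher (0.351%) genes, and at 0.5 there were 575 lower (3.67%) and 565 higher (3.61%), so that the lower and higher sides were nearly even at 0.5. The spread of the ratio over measured genes was 0.276 (SD), against 0.174 to 0.255 on the other 7 arrays. These counts rest on the background correction, since the offset of 50 used here pulls the ratios of dim spots towards 0. The scanner's own ratio gave 116 lower and 111 higher genes past 1.5, a share of 51.1% lower in place of 87.5%, and an offset of 0 gave 76 and 51.

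SLC25A5 had the lowest ratio of all measured genes. It encodes adenine nucleotide translocase 2, which exchanges ATP for ADP across the inner mitochondrial membrane. Its raw signal was 2022 in the mock and 244 after miR-532-5p, a log2 ratio of −2.75 (6.75-fold lower). The 6 arrays of other lines gave −0.39 to 0.08 for the same probe, and miR-532-3p gave −0.10, so the low value was seen with miR-532-5p alone among these 8 arrays. A second probe, which the array design assigns to a pseudogene of SLC25A5, stood at −2.15. Transcripts of the gene and of its pseudogene are alike, so these 2 probes are not separate evidence and the source of the signal is uncertain.

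The probe of CD24, a small glycosylated surface protein, went from 2413 in the mock to 432, a ratio of −2.28. On the other 786-O array it was also low, at −1.26, against −0.68 to 0.55 in other lines. CD24 has near-identical copies in the genome, and which copy the signal comes from is uncertain. CXCL1, a chemokine that draws neutrophils, went from 1227 to 240 (−2.06), and a further probe of the gene gave −1.06. The other lines ranged from −0.77 to 0.84 for CXCL1, which makes it one of the more variable of the low genes.

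MRPL18, a protein of the large subunit of the mitochondrial ribosome, went from 1037 to 191 (−2.10). C11orf31 (SELENOH), a nuclear selenoprotein, went from 2904 to 669 (−1.97), and its further probe from 1738 to 417 (−1.86). For both genes the arrays of other lines lay close to 0, at −0.21 to −0.07 and at −0.19 to 0.32. C11orf31 is the gene of the 14 past −1.5 whose probe holds the AAGGCAT shown above, and TMED10, a cargo receptor of the early secretory pathway, holds the 6-base match with a following A. TMED10 stood at −1.75 (raw signals 704 and 162) and its further probe at −0.94.

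The other named genes past −1.5 were FAM58A (now CCNQ, a cyclin) at −1.64, CYCS (cytochrome c, an electron carrier and trigger of apoptosis) at −1.61, PSMD9 (a chaperone of proteasome assembly) at −1.58, BCAT1 (branched-chain amino acid transaminase) at −1.57, CEP55 (needed for the last step of cell division) at −1.55 and RBBP7 (a histone-binding protein of several chromatin complexes) at −1.52. Further probes split among these: CYCS gave −1.74 and −0.13, CEP55 −0.83, FAM58A −0.25 and BCAT1 −0.18. The low-reading probes of CYCS, FAM58A and BCAT1 had raw mock signals of 39.3, 70.7 and 38.5, against 452, 461 and 323 for the probes that represent these genes. An unnamed probe at −1.71 completes the 14. Its raw mock signal was 284 here and 22.5 on the other 786-O array, so its ratio rests on a mock reading that the other array did not repeat, and without it 13 genes were below −1.5. It was the 1 gene past 1.0 whose mock readings differed by over 2-fold. Below these came ASNS (asparagine synthetase) at −1.33, RPA1 (which coats single-stranded DNA) at −1.31 and NCEH1 (a cholesterol ester hydrolase) at −1.30. ASNS ranged from −1.25 to 2.79 and NCEH1 from −1.97 to 0.72 over the other lines, so NCEH1 did not stand outside that range.

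HMOX1 had the highest ratio. It encodes heme oxygenase 1, which splits heme into biliverdin, iron and carbon monoxide. Its raw signal went from 445 in the mock to 2942, a log2 ratio of 2.74 (6.66-fold higher), read as a mean of 10 spots. On the miR-532-3p array it went from 428 to 4057 (2.60), so both strands of the hairpin gave high values in 786-O, whereas the 6 arrays of other lines ranged from −0.30 to 0.67. The 786-O arrays share a mock of the same line, and whether this value belongs to the strands, to transfection of this line or to its mock cannot be told apart.

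HMGA2, a chromatin protein of embryonic tissue that many tumours express again, went from 129 to 575 (2.08), and with miR-532-3p from 129 to 433 (1.21). Other lines ranged from −1.01 to 1.49. The 2 further probes of HMGA2 gave 0.25 and 0.44 from raw mock signals of 48.4 and 58.9, so the size of the change depends on the probe. Next came, among others, ANGPTL2 (a secreted angiopoietin-like protein) at 1.42, SCG5 (a chaperone of the secretory granule) at 1.40, SIGLEC15 (a sialic acid receptor) at 1.39, C11orf86 at 1.39, NT5E (CD73, which makes adenosine from AMP) at 1.37, TMEM71 at 1.34 and KLRC1 (a receptor of natural killer cells) at 1.34. Several of these were dim in the mock, with raw signals of 56.1 for ANGPTL2, 71.4 for C11orf86 and 40.6 for KLRC1. With miR-532-3p, TMEM71 (0.71), SIGLEC15 (0.48), SCG5 (0.47), KLRC1 (0.42) and ANGPTL2 (0.12) were above 0 too. NT5E (−0.65) and C11orf86 (−0.49) went the other way there. TMEM71 was also above 0 in all other lines, at 0.04 to 0.46. The further probe of NT5E gave 0.79 with miR-532-5p.

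**Figure D1:**
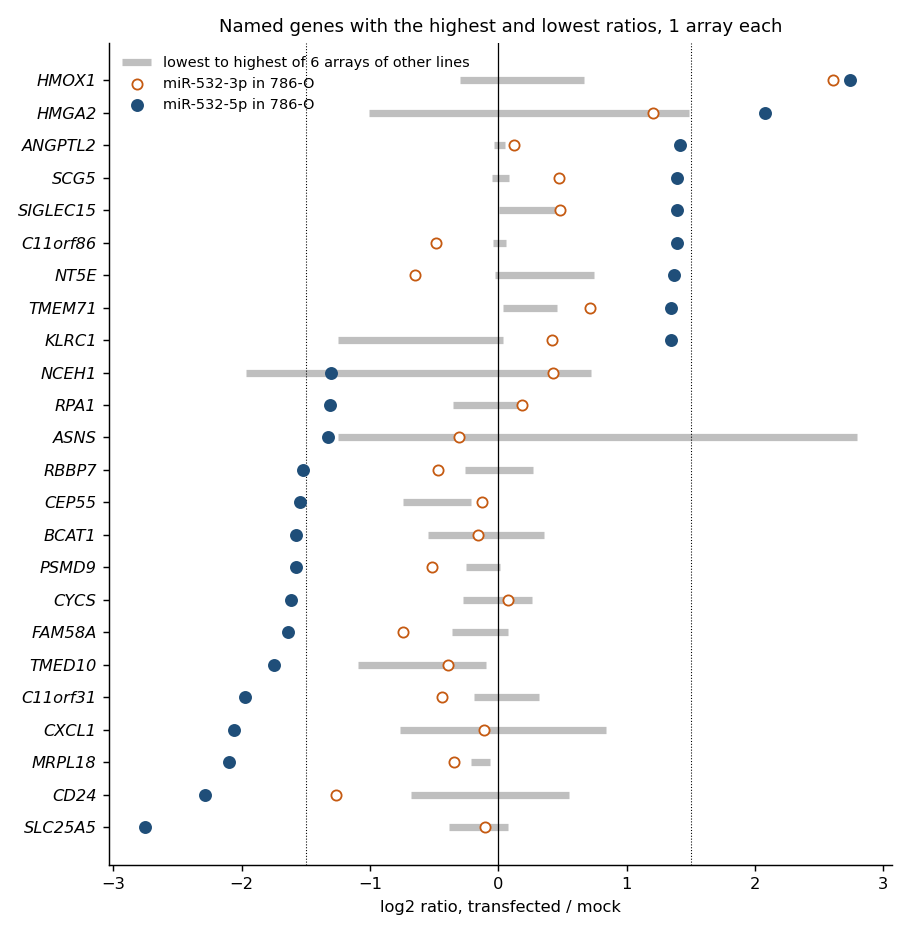
Log2 ratio of transfected over mock RNA (horizontal axis) for the 15 lowest and 9 of the 10 highest named genes measured with miR-532-5p, 1 array per point; filled points are miR-532-5p, open points miR-532-3p in the same line, and grey bars run from the lowest to the highest of the 6 arrays of other lines. SLC25A5 at −2.75 and HMOX1 at 2.74 mark the ends, and HMOX1 is the gene whose open point, at 2.60, lies beside the filled one.

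Ratios were set beside the arrays of the other lines, which carry the same dyes. Of all measured genes, 19.5% lay below all 6 of those arrays and 18.2% above all 6. Of the 14 genes past −1.5, 14 lay below all 6, and both genes past 1.5 lay above all 6. For the 70 lower and 55 higher genes past 1.0, 65 and 54 did so. A gene far from 0 will often lie outside 6 other values, so nothing is read from these counts beyond the range itself. Taking off each gene's median over those 6 arrays left SLC25A5, C11orf31, MRPL18, CD24 and BCAT1 lowest and HMOX1, HMGA2, SCG5, ANGPTL2 and TMEM245 highest. TMEM245, a membrane protein whose intron holds another miRNA, stood at 1.08 uncorrected, while its further probe gave 0.07. Among the 25 extreme genes, 10 had a further measured probe, and all 12 such probes had the sign of the representing probe. On the miR-532-3p array the 55 higher genes had a median of 0.51, and 46 had the same sign. There 30 of them were above 0.5 and 2 below −0.5, where 264 of all 15442 genes measured were above 0.5. The 70 lower genes had a median of −0.24 there, and 51 had the same sign, with 16 below −0.5 and 3 above 0.5. What the 786-O arrays share was not tested.

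Genes whose probe holds the seed match were examined next. Of 213 such genes on the array, 68 were measured, and the other 145 were not counted. Their median was −0.13, against 0.0013 for the 15468 measured genes with no match. Of the 68, 54 were below 0, where 49.9% of all measured genes were, and 17 (25%) were below −0.5, against 3.67% of all. None of the 68 was above 0.5, where 3.61% of all were, and 3 were below −1.0. Most of the 68 lay closer to 0 than the SD of 0.276 over all genes.

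The medians differed by kind of match. The 12 genes with AAGGCAT and a following A had a median of −0.42, and 12 of 12 were below 0. The 56 with AAGGCAT and another base had a median of −0.087, and 21.4% of them were below −0.5. The 23 with the 6 bases and an A had a median of −0.085 and 8.70% below −0.5, and the 110 with the 6 bases alone −0.039 and 10.9%. Of the 12, 3 are probes that the design assigns to pseudogenes of the ribosomal protein gene RPL23A (−0.60, −0.52 and −0.40), which share sequence and are not separate evidence. Without pseudogenes the 9 others had a median of −0.35.

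**Figure D2:**
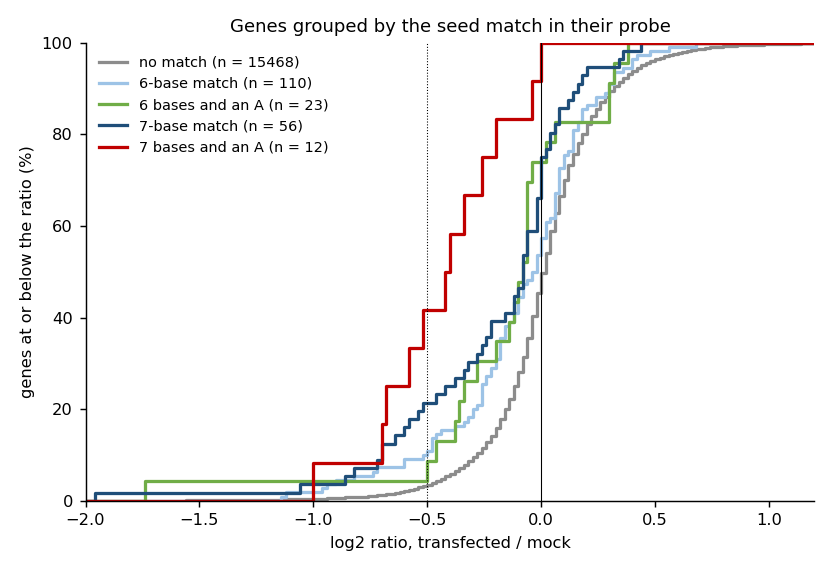
Cumulative share of measured genes (vertical axis, percent) at or below a log2 ratio of transfected over mock RNA (horizontal axis), for genes grouped by the match to the miR-532-5p seed in their probe, with the number of genes in the legend. The curve of the 12 genes with 7 bases and an A lies to the left and reaches 100% by 0, that of the 56 with the 7 bases stands at 21.4% at −0.5, and the 15468 genes without a match cross 50% near 0.

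Brightness bears on these figures. Genes with the match were somewhat brighter than all genes (median raw mock signal 90.7 against 69.9), and dim genes are pulled towards 0. Among genes with a raw mock signal over 100, a restriction chosen after the values were seen, 17 of 32 with the match (53.1%) were below −0.5, against 8.63% of all 6175, and the medians were −0.52 and −0.03. All 17 genes below −0.5 were thus bright ones.

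Of these 17, the 8 shown with their sites had the following signals. MRPL12, a mitochondrial ribosomal protein, went from 283 to 99.8 (−1.07), and its further probe gave −1.03. ATP13A3, a transporter of polyamines, went from 496 to 202 (−1.01), and its further and much dimmer probe gave −0.17. BAG2, a cochaperone of HSP70, went from 139 to 51.7 (−0.87), but its range over other lines, −1.09 to 0.40, takes that value in. PSMB6, a catalytic subunit of the proteasome, went from 1307 to 664 (−0.83), and was −0.59 with miR-532-3p. CNN3, an actin-binding calponin, went from 332 to 161 (−0.74). UQCRC2, a core protein of respiratory complex III, went from 388 to 195 (−0.71), where other lines gave −0.05 to 0.22 and miR-532-3p 0.20. MPZL1, a surface glycoprotein, went from 476 to 245 (−0.71), while its further probe gave 0.05. The probes of 7 of the 8, all but BAG2, lay below all 6 arrays of other lines, where 19.5% of all measured genes did. These 8 were chosen for their low ratios on this array, so nothing is read from that count.

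Genes with the match were read on the other arrays too. On the other 7 arrays the genes with this match that were measured there had medians of −0.044 to 0.034, and 0 to 5.63% of them were below −0.5. On the miR-532-5p array, matches to the seeds of miR-532-3p, miR-140-5p, miR-140-3p and miR-199-3p had medians of −0.034 to 0.021 and 1.75% to 6.48% below −0.5. Each of these 4 seeds had its own lowest median on the array of its own miRNA, at −0.14, −0.086, −0.034 and −0.13. The match to miR-125b-1-3p was held by 5 measured genes and is not compared. Matches to the 14 stretches of 7 bases of miR-532-5p that start at base 3 or later, some of which overlap the seed, had medians of −0.044 to 0.092, over 12 to 69 genes, and 0 to 16.7% below −0.5. The stretches of bases 1 to 7 and 3 to 9, which each share 6 bases with the seed, had medians of −0.023 and −0.035, with 13.5% and 8.77% below −0.5.

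**Figure D3:**
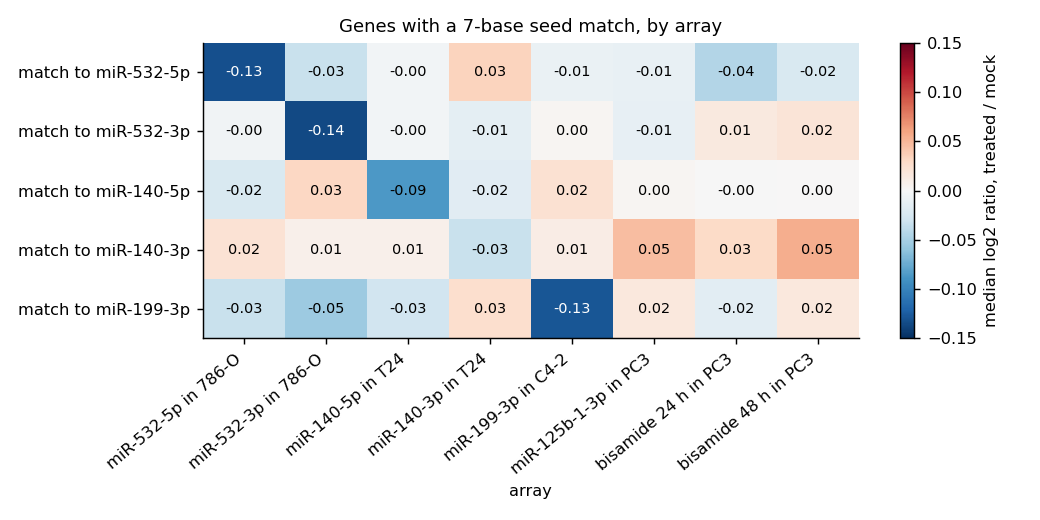
Median log2 ratio of treated over mock RNA for genes whose probe holds a 7-base match to the seed of each of 5 miRNAs (rows), on each of the 8 arrays (columns), printed in each cell and shown by colour. The row of miR-532-5p is −0.13 on its own array and between −0.04 and 0.03 on the other 7.

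Read the other way, the match is rare among the genes that changed most. It was held by 1 of the 14 genes below −1.5 (7.14%), 3 of the 70 below −1.0 (4.29%) and 17 of the 575 below −0.5 (2.96%), against 0.434% of all measured genes and 0 of the 565 above 0.5. A probe covers 60 bases of a transcript, so a gene without the match in its probe may hold it elsewhere, and the share of lower genes with a site is not given by these counts.

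Lists of genes by role were then described by their counts and medians. Genes of DNA replication were low as a group. Of 30 listed, 29 were measured and 29 were below 0, 20 of them below −0.5 (69.0%, against 3.67% of all genes), with a median of −0.57, and 21 lay below all 6 arrays of other lines, where 19.5% of all genes did. TYMS, which makes the thymidine nucleotide of DNA, was at −1.27 (raw signals 1644 and 611), and MCM6, of the replicative helicase, at −1.17 (491 and 174). TK1 stood at −1.16, MCM3 at −1.07, CDC45 at −1.01 and PCNA, the sliding clamp, at −0.96. The 2 members nearest 0 were POLE2 at −0.17 and RFC3 at −0.16. None of the 29 probes holds AAGGCAT, but only 0.434% of all measured genes hold it, so 29 probes are too few to show a lack. On the miR-532-3p array the same genes had a median of −0.11 with 4 below −0.5. Low medians of this list also occurred in other lines, at −0.40 and −0.29 with bisamide and −0.37 with miR-140-5p, so its low level was not particular to miR-532-5p.

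Genes of mitosis followed to a lesser degree. All 30 were measured, 29 were below 0 and 10 below −0.5 (33.3%, against 3.67% of all genes), with a median of −0.40. The 6 that lay below all 6 arrays of other lines were a share near the 19.5% of all genes. TOP2A, which untangles replicated DNA, was at −1.0 (290 and 108) and BUB1B, of the spindle checkpoint, at −0.91, while PLK1, a mitotic kinase, was the highest at 0.32. A dimmer further probe of PLK1 gave −0.03. With miR-532-3p the median was 0.05 and no member was below −0.5. Bisamide for 48 h gave a lower median, −0.60, in PC3. Among genes of no list, KPNA2 (−1.29), CDCA7 (−1.20), H2AFX (−1.15), SLBP (−1.13) and DUT (−1.12), which also serve replication or the cell cycle, stood below −1.0; they were picked after their values were seen.

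**Figure D4:**
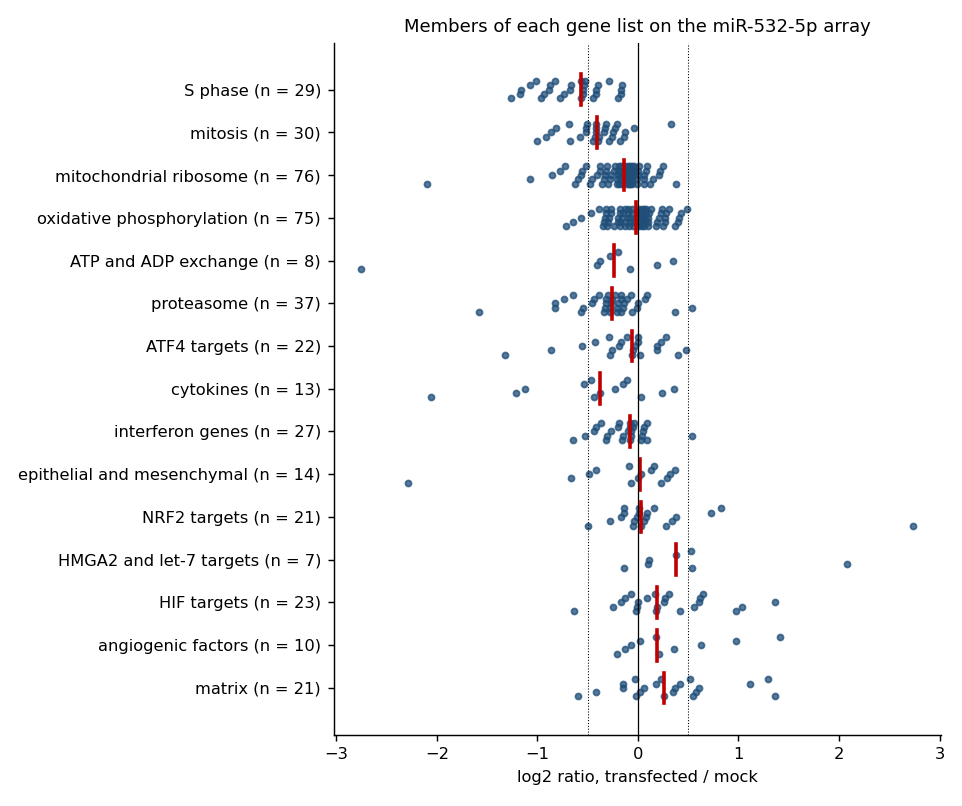
Log2 ratio of transfected over mock RNA (horizontal axis) of every measured member of 15 gene lists (rows) on the miR-532-5p array; each point is 1 gene, the red bar is the list's median, and dotted lines mark −0.5 and 0.5. All 29 replication genes lie left of 0, and the far points are SLC25A5 at −2.75 and HMOX1 at 2.74.

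Mitochondrial genes were low in part. Of 76 proteins of the mitochondrial ribosome, 62 were below 0 (81.6%, against 49.9% of all genes) and 10 below −0.5 (13.2%, against 3.67%). None was above 0.5, and the median was −0.14. MRPL18 and MRPL12 were lowest, followed by MRPL20 (−0.86, raw signals 791 and 379), and MRPS16 (0.25, a dimmer further probe −0.08) and MRPL48 (0.38) were highest. The list's median was about as low with miR-532-3p (−0.12) and with miR-199-3p in C4-2 (−0.13). Of 75 genes of the respiratory complexes, 39 were below 0 and 3 below −0.5 (4%), a share near the 3.67% of all genes, with UQCRC2 at −0.71 and UQCRFS1 at −0.64 lowest and NDUFB3 at 0.43 and NDUFB4 at 0.49 highest. Of the ADP/ATP carriers, SLC25A4, whose probe holds AAGGCAT, was at −0.28 and SLC25A6 at 0.35, so SLC25A5 stood apart from both. The 8 measured genes of that list had a median of −0.24, with VDAC3 at −0.41 next lowest.

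The list of proteasome subunits was written after the extreme genes were seen and also holds PSMD9, the assembly chaperone named above. Its median was −0.26, with 7 of 37 below −0.5 (18.9%, against 3.67% of all genes) and PSMD2 (0.54, further probe 0.06) alone above 0.5. PSMD9, PSMB6 and PSMB10 (−0.82) were lowest. The same list was as low with miR-532-3p (−0.27) and with bisamide (−0.25 and −0.21).

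Other antioxidant genes were read beside HMOX1. It is a known target of NRF2. Of 21 measured genes driven by that factor, HMOX1 included, 3 were above 0.5 (14.3%, against 3.61% of all genes), and HMOX1 is 1 of these 3. None was below −0.5, and the median was 0.03. FTH1, the heavy chain of ferritin, which stores iron, was next at 0.83 (raw signals 9845 and 17735; further probes 0.39 and 0.88) and AKR1C3 at 0.72, whereas NQO1 and OSGIN1, common readouts of NRF2, were at 0.01 and 0.03, and TXNRD1 was lowest at −0.50. FTH1 reached 0.83 in another line too. Of the genes listed here as regulators of HMOX1, MAFK was at 0.52, MAFG at 0.33 and BACH1, a repressor of HMOX1, at −0.03. KEAP1 was at −0.03 and PIR, an iron-binding cofactor, at −0.33, while NFE2L2 was not measured in both channels.

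HMGA2 was read with other genes that let-7 is known to silence. Of 10, 7 were measured, with a median of 0.38 and 3 above 0.5 (42.9%, against 3.61% of all genes), which besides HMGA2 were IGF2BP2 (0.54) and IGF2BP3 (0.52), RNA-binding proteins of fetal tissue. CDC25A was lowest at −0.14. With miR-532-3p the median was 0.26. The other lines gave medians from 0.01 with miR-140-5p in T24 to 0.31 with miR-140-3p in T24. In the latter, 2 of 7 were above 0.5, so a high level was not particular to 786-O.

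Genes driven by hypoxia-inducible factors were higher in part. Of 23 measured, 7 were above 0.5 (30.4%, against 3.61% of all genes) and 1 below −0.5, with a median of 0.19. Above all 6 arrays of other lines lay 9 of these 23, where 18.2% of all genes did. NDRG1 was at 1.04 (raw signals 3318 and 6686) and ANGPTL4, which inhibits lipoprotein lipase, at 0.98 (4677 and 9153). SLC2A1, the glucose transporter GLUT1, was at 0.65 and EGLN3, an oxygen-sensing hydroxylase, at 0.62. VEGFA stood at −0.07, LDHA at −0.25 and CCND1, cyclin D1, at −0.64, so the list did not move as a whole. EPAS1, which encodes HIF-2 alpha, was at 0.72 (630 and 970) with 0.23 for miR-532-3p. NDRG1 and ANGPTL4 were low with miR-532-3p (−0.85 and −0.39), and no member of the list was above 0.5 there. In T24, miR-140-5p gave a median of 0.21 over the 21 members measured there.

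Secreted proteins appeared on both sides. Of 10 measured angiogenic factors, 3 were above 0.5 (30%, against 3.61% of all genes), ANGPTL2, ANGPTL4 and PGF (0.63), with FGF2 lowest at −0.21. The list of matrix genes was written after the extremes were seen and shares LOX, LOXL2 and other members with the hypoxia list. Of 21 measured, 7 were above 0.5 (33.3%, against the same 3.61%) and 1 below −0.5, with a median of 0.26. Its medians in other lines ran from 0.004 with miR-140-5p in T24 to 0.29 with miR-125b-1-3p in PC3. In the latter, 5 of 18 members were above 0.5, so a high level was not particular to miR-532-5p. HTRA1, a secreted protease, was at 1.29 (1758 and 4186), SPARC at 1.11 (810 and 1665), and the collagen IV chains COL4A1 and COL4A2 at 0.54 and 0.42, while THBS1 was at −0.60 (a dimmer further probe gave 0.05) and FN1 at −0.42. Inflammatory cytokines, also listed after the extremes were seen, had a median of −0.38 over 13 genes, with 4 below −0.5 (30.8%, against 3.67% of all genes) and none above 0.5. Besides CXCL1 these were IL6 at −1.21 (436 and 146), CSF2 at −1.12 (226 and 72.0) and CXCL2 at −0.54. The range of IL6 over other lines, −1.28 to 0.01, takes its value in. CXCL8 was at −0.44, and LIF (0.24, a dimmer further probe −0.03) and IL11 (0.36) were highest. With miR-532-3p CXCL8 was at 0.88 and CXCL2 at 0.69. In T24, miR-140-3p gave a median of −0.49 over the 12 members measured there.

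The lists of interferon genes, ATF4 targets and epithelial and mesenchymal genes had medians near 0, though each held low members. Of 27 measured interferon-stimulated genes, 2 were below −0.5 (7.41%, against 3.67% of all genes), IFIT1 at −0.64 and ISG15 at −0.53. BST2 at 0.54 was the 1 above 0.5 (3.70%, against 3.61%), and the median was −0.08. IFIT2 was second highest at 0.09. Of 22 ATF4 targets, 3 were below −0.5 (13.6%, against the same 3.67%): ASNS, PSAT1 at −0.86 and CTH at −0.56. None was above 0.5, DDIT4 (0.48) and CEBPB (0.39) were highest, and the median was −0.06. Among 14 epithelial and mesenchymal genes, CD24 and KRT19 (−0.67) were below −0.5 (14.3%, against 3.67%), and the median was 0.02. VIM was at 0.03, and the transcription factors ZEB1 and SNAI1 were highest at 0.32 and 0.37. KRT19 was lower still with miR-532-3p, at −1.55.

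Of 13 genes that process or use miRNAs, DROSHA, the nuclease that cuts hairpins from their precursors, was at −0.74 (844 and 446) and DICER1, which cuts the loop, at 0.74 (72.1 and 126). XPO5 was second lowest at −0.16. TNRC6A, a scaffold of silencing, was at 0.59, and AGO2 at −0.14. With miR-532-3p DROSHA was at −0.69 and DICER1 at 0.88, both close to the values with miR-532-5p, and the other lines ranged from −0.24 to 0.10 and from −0.11 to 0.61. Neither DROSHA nor DICER1 holds AAGGCAT in its probe, as is so for nearly all measured genes (0.434% hold it).

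Genes recalled as targets of miR-532-5p, and its host gene, were read whatever their values. NAP1L1, a histone chaperone, gave different values by probe: −0.0029 (raw signals 817 and 746) for the probe that represents it and −1.19 (1212 and 468) for another, so its direction is not settled here. RUNX3, a transcription factor, was not above background in both channels. CLCN5, whose intron holds the hairpin, was at −0.10 (32.7 and 24.8).

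**Figure D5:**
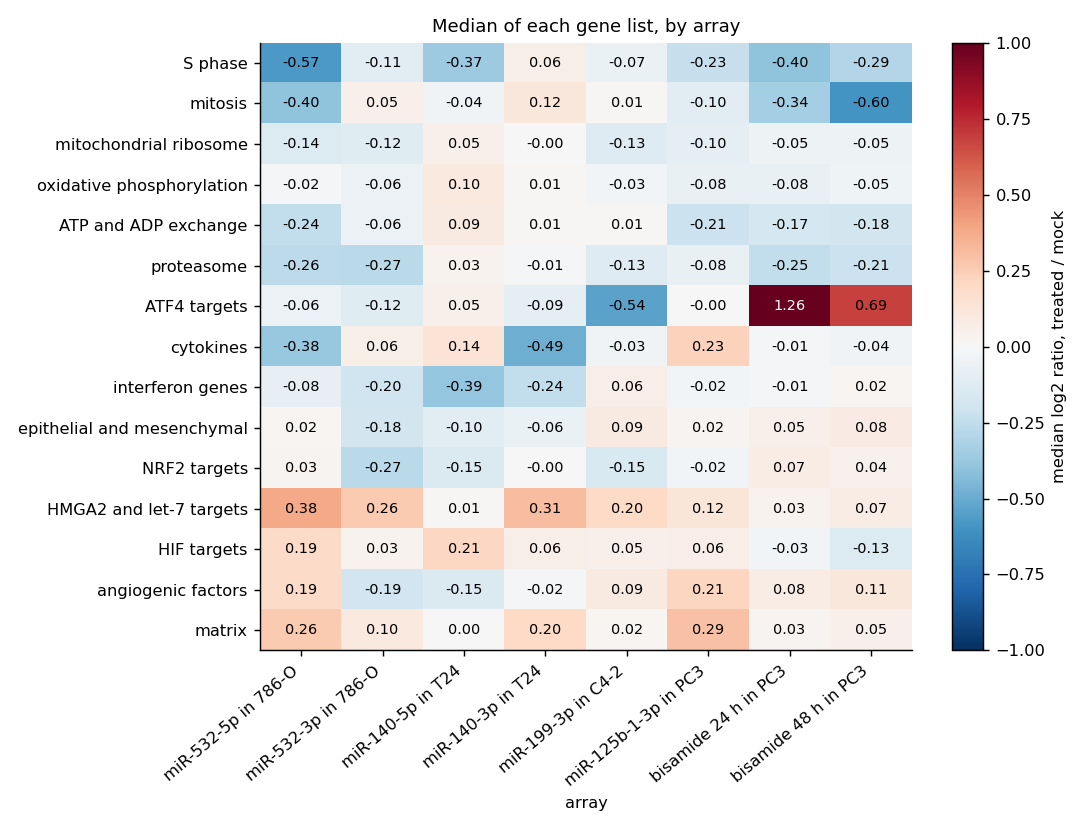
Median log2 ratio of treated over mock RNA of 15 gene lists (rows, the members measured with miR-532-5p that were also measured on the array in question) on each of the 8 arrays (columns), printed in each cell and shown by colour. The replication genes are lowest with miR-532-5p (−0.57) and the mitosis genes with bisamide for 48 h (−0.60).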

How the data were processed

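RNA of 8 treated cultures and of mock cells was read on 8 two-colour arrays of 1 slide. Per the file headers, Agilent Feature Extraction 11.5.1.1 read the slide. Of its columns, 4 were used: the deposited intensity (mean brightness on a linear scale) of a spot in either channel, and that of the local background (median). Its own log10 ratio, Cy5 over Cy3, is also deposited, made from signals that the software had corrected for background and dye. The series table was the same as that column on each array (largest difference 0). The files' coordinates are those of GRCh37. Groups were taken from the transfection label, 1 array each.

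Intensities were corrected here with normexp in limma 3.58.1 (R 4.3.3, offset 50) and normalized within each array by loess, giving a log2 ratio computed from the deposited intensities. For the SDs of the 786-O mock readings, average brightness was then also normalized between the 8 arrays (Aquantile in limma). Of 60901 spots of 58201 probes, 175 outlier spots were left out on the miR-532-5p array, and spots of a probe were averaged. No spot was saturated. A gene was represented by its brightest probe over the 8 arrays. Genes well above background in both channels by the scanner's flags were counted. Names follow the array design, and 21902 genes matched RefSeq by accession. Precision is limited by the number of arrays.

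Genes named were the 15 lowest and 10 highest with a symbol, the 5 lowest and 5 highest after the other lines' median was taken off, the 8 lowest with a seed match, the 2 lowest and 2 highest of each list, and NAP1L1, RUNX3, CLCN5 and the markers. Some genes that this rule names are not reported here. Other names were added after the values were seen. The members, 18 lists and tests were chosen with earlier results of these data known, and 3 further lists after the extremes were seen. The normalization and the search for matches were tested on simulated data. Alternatives were other background corrections, median centring, the scanner's ratio, the series table, other filters, the mean over probes, other kinds of match and other sets of arrays as background.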

Additional observations from a re-analysis of the deposited data

Results flagged for a closer look

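PLEKHB2, which encodes a membrane protein with a pleckstrin homology domain, is the named gene past 1.0 on both 786-O arrays in opposite directions. Its log2 ratio was −1.24 with miR-532-5p (raw signals 447 in the mock and 147 after transfection) and 1.05 with miR-532-3p (422 and 1269). The arrays of other lines ranged from −0.49 to 0.38. The difference between the strands was not tested, since each strand has 1 array.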

How the results depend on the processing

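No paired analysis was possible because each treatment has 1 array. Matches in annotated 3′ untranslated regions were not run, since no transcript set was used here. Lower and higher genes past 1.5, 14 and 2 as reported, were 75 and 51 with plain background subtraction, 24 and 10 with no background correction, 76 and 51 with an offset of 0, 116 and 111 with the ratio of the scanner software and, alike, with the series table, 8 and 1 with the mean over a gene's probes, and 70 and 55 at a threshold of 1.0. The lower share was 59.5%, 70.6%, 59.8% and 51.1% with the first 4 of these, against 87.5%. Median centring gave 15 and 2, and leaving out genes whose 786-O mocks differed by over 2-fold, chosen after the values were seen, 13 and 2. The median of the seed-match genes, −0.13 as reported, was −0.40 with subtraction, −0.27 with no correction, −0.41 with an offset of 0, −0.50 with the scanner's ratio and the series table, −0.0036 with no filter on dim probes, −0.42 for 8-base matches and −0.52 over a raw mock signal of 100. The share below −0.5, 25% as reported, was 44.1% with subtraction and with an offset of 0, 50% with the scanner's ratio and the series table, 8.45% without the filter and 53.1% over that signal, where all genes gave 12.4%, 12.6%, 14.9%, 1.34% and 8.63%. It stayed above the share of all genes under each of these. The replication list was at −0.93 with subtraction, −0.77 with no correction, −0.94 with an offset of 0, −0.69 with median centring, −0.95 with the scanner's ratio and the series table and −0.41 with the other lines' median taken off. The mitosis list was at −0.50 with median centring, with the scanner's ratio and with the series table, and at −0.29 with the other lines' median taken off. The mitochondrial ribosome was at −0.25 with median centring. No list median beyond 0.0985, the SD between the 786-O mock readings, changed sign. The smaller medians of the HMOX1 regulators (−0.02) and NRF2 targets did so with median centring, those of the epithelial and mesenchymal genes with 5 settings, of the kidney markers with 4 and that of the miRNA-processing genes (−0.04) with the other lines' median taken off. All 25 extreme genes kept their sign in all 250 values computed, of which 157 moved by more than that SD. The causes of these shifts were not tested beyond what the settings themselves change.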
